A study of Mus musculus with 6 samples.

Results

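The glucose-sensing transcription factors MondoA and ChREBP, their shared partner Mlx and 5 of their target genes other than arrestins were followed in mouse hearts with and without the C247S substitution in Txnip. The 8 genes were chosen by symbol and matched by Ensembl identifier: Mlxip (which encodes MondoA), Mlxipl (which encodes ChREBP), Mlx, Klf10, G6pc3, Tkfc, Bhlhe40 and Pik3ip1. All 8 were among the 49315 genes of the deposited count table, and all 8 had enough counts to be among the 12777 genes tested. RNA from 6 whole-heart samples was sequenced in bulk, from 3 wild-type mice (Txnip WT) and 3 mice with the conditional knock-in (Txnip C247S mutant). The strain was C57BL/6. MerCreMer, a recombinase that works only when tamoxifen or its metabolite is present, and 4-hydroxytamoxifen are given for both genotypes. The sources used here do not say whether wild-type animals had the recombinase too, which promoter drove it, or the animals' age and sex. Library totals lay between 14146048 and 15620476 counts, and the 8 genes together took 0.0195% to 0.0219% of them.

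MondoA and ChREBP are paralogous proteins that bind DNA only as dimers with Mlx. Glucose 6-phosphate and related sugar phosphates move them to the nucleus, where they bind carbohydrate response elements, which are pairs of E-box-like sequences. MondoA is the main form in muscle, whereas ChREBP is best known from liver and fat, where it drives glycolysis and fatty acid synthesis. ChREBP is made from alternative first exons, which give a long alpha form and a short, constitutively active beta form that starts upstream. Txnip is the best-known target of MondoA and in turn restrains glucose uptake, so that the sensors and the arrestin form a feedback loop.

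The E-box and the spacing of the carbohydrate response element were searched in the RefSeq promoter windows (GRCm38.p6), which run from 250 bases before to 50 bases after each start. Of the members, 6 had an entry, Mlxipl with 2 starts that lie 17001 bases apart, which gave 7 windows. The E-box CACGTG, which reads the same on both strands, was present in 3 of the 7 windows (42.9%), against 7.15% of all 32851 windows of that length. Those 3 were the windows of Mlx, of the upstream start of Mlxipl and of G6pc3, the only target gene among them, and Tkfc and Pik3ip1 had none. G6pc3 had 2 E-boxes in its window, and 0.594% of all windows had at least 2. The spaced pair CACGNNNNNNNCACG, searched on both strands, was present in 0 of the 7 windows and in 0.615% of all windows. The window of Txnip holds 1 match and is shown for comparison. The facing pair CACGNNNNNNNNNCGTG was present in 0 of the 7 windows and in 0.280% of all. In 23 windows of the other carbohydrate-response genes read below, the E-box was present in 4 (17.4%), the spaced pair in 0 and the facing pair in 1. The windows with a match are shown first, from 15 bases before the first to 15 bases after the last matched base, with the fixed letters of the match in capitals.
G6pc3, chr11:102189585-102189640, plus strand: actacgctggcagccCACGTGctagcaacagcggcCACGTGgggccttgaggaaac
Mlx, chr11:101087235-101087270, plus strand: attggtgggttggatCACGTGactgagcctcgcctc
Mlxipl, upstream start, chr5:135089777-135089812, plus strand: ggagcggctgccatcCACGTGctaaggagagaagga
Txnip, chr3:96557857-96557901, plus strand: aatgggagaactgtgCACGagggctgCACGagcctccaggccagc
Counted from the start, the first base of the matches lay at -99 and -79 in G6pc3, -40 in Mlx, -98 at the upstream start of Mlxipl and -85 in Txnip. The full windows of both Mlxipl starts follow, because Mlxipl was the member with the largest difference between genotypes and the gene counts pool transcripts from both.
Mlxipl, upstream start, chr5:135089640-135089939, plus strand: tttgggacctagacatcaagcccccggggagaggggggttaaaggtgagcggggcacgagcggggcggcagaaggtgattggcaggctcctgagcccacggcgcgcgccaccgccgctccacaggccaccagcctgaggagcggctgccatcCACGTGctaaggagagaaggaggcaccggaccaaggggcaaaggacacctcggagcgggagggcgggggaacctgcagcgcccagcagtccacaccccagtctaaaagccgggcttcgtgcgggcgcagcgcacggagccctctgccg
Mlxipl, downstream start, chr5:135106641-135106940, plus strand: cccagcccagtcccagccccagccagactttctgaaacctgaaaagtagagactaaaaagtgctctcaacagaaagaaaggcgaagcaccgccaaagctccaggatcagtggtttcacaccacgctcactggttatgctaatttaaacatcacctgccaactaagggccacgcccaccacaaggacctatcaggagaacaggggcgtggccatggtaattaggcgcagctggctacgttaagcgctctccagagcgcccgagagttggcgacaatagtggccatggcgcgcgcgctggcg
The upstream window holds the E-box, and the downstream window holds none of the 3 patterns. A match describes the letters only, since binding was not measured, and the counts do not say which start was used.

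No member passed the test between genotypes. Levels are given as CPM, the usual depth-normalised count of a gene, with libraries scaled by TMM. The test was edgeR's quasi-likelihood fit over all genes, with called meaning a Benjamini-Hochberg adjusted p under 0.05. Over all genes 38 of 12777 were called, a background of 0.297%, so that 0 of 8 is no result about the members. Before adjustment, 2 of 8 members had p under 0.05, against 9.97% of all tested genes. Mlxipl was the lower one in the knock-in hearts (5.23% of tested genes) and Pik3ip1 the higher one (4.74%). DESeq2 called 1 of 8 (Mlxipl), against 1.17% of the genes it tested, limma-voom called 0, against 0.141%, and edgeR without a filter on low counts called 1 (Mlxipl), against 1.46%. The values of the 3 wild-type and the 3 knock-in hearts did not overlap in 3 of 8 members, against 16.1% of tested genes. Mlxip and Pik3ip1 were higher in the knock-in hearts (8.12% of tested genes) and Mlxipl lower (7.99%). Log2 fold changes, knock-in over wild-type, were positive in 4 members and negative in 4, and the median was 0.0061, beside -0.0068 for all tested genes. In 7 of 8 members the log2 fold change was smaller than 0.3 in size.

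**Figure D1:**
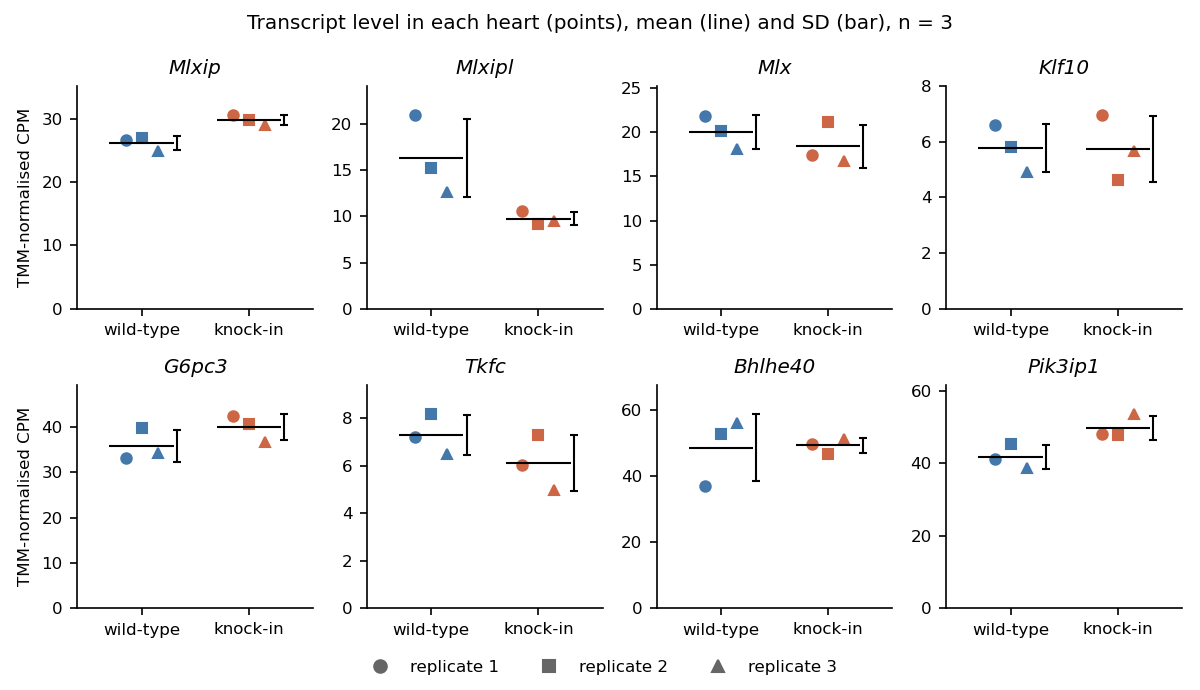
Normalised CPM (y axis, from 0) of the 8 genes in each wild-type and knock-in heart, with the mean as a line and the SD as a bar (n = 3). Mlxipl ran from 12.7 to 21 CPM in wild-type and from 9.16 to 10.6 CPM in knock-in hearts, while the values of Mlx, Klf10, G6pc3, Tkfc and Bhlhe40 overlapped.

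Txnip, the edited gene and a target of the same factors, fell. It stood at 724, 791 and 741 CPM in the wild-type hearts and at 438, 391 and 429 CPM in the knock-in hearts. The groups did not overlap, at a log2 fold change of -0.84 ± 0.09 (SE), with an edgeR adjusted p of 0.00379. The count reads the amount of the transcript and not the edited base, and 19.4% of the exon bases of Txnip also lie in Gm15441 on the other strand. Leaving out wild-type replicate 2 took its edgeR adjusted p to 0.0525, and leaving out knock-in replicate 3 took it to 0.0642.

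Mlxipl, the gene of ChREBP (ENSMUSG00000005373, chromosome 5, 135089890 to 135138382, GRCm38, plus strand), had the largest difference of the 8. Its level was 21, 15.3 and 12.7 CPM in the wild-type hearts, from 308, 221 and 183 counts. In the knock-in hearts it was 10.6, 9.16 and 9.54 CPM, from 163, 139 and 140 counts. Each knock-in heart was below each wild-type heart, and the wild-type hearts were spread 1.66-fold between the highest and the lowest, against 1.16-fold in the knock-in hearts. Counting error alone gave wild-type replicate 1 a 95% Poisson interval of 18.7 to 23.5 CPM and wild-type replicate 3 one of 10.9 to 14.6 CPM. The means were 16.3 ± 4.26 and 9.77 ± 0.750 CPM (SD, n = 3 per genotype), a log2 fold change of -0.74 ± 0.18 (SE; 95% interval -1.15 to -0.33), or 1.67-fold lower.

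Over all genes the adjusted p of Mlxipl was 0.173 (edgeR, unadjusted p = 0.00205), and 1.18% of the tested genes had a smaller p. DESeq2 gave an adjusted p of 0.0495 and limma-voom 0.221, and without a filter on low counts edgeR gave 0.00121. The size moved with single hearts: without wild-type replicate 1 the log2 fold change was -0.52, whereas without wild-type replicate 3 it was -0.89, with edgeR adjusted p of 0.449 and 0.144. A heart is a mixture, so fewer cells of a type and less Mlxipl RNA per cell cannot be told apart here.

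**Figure D2:**
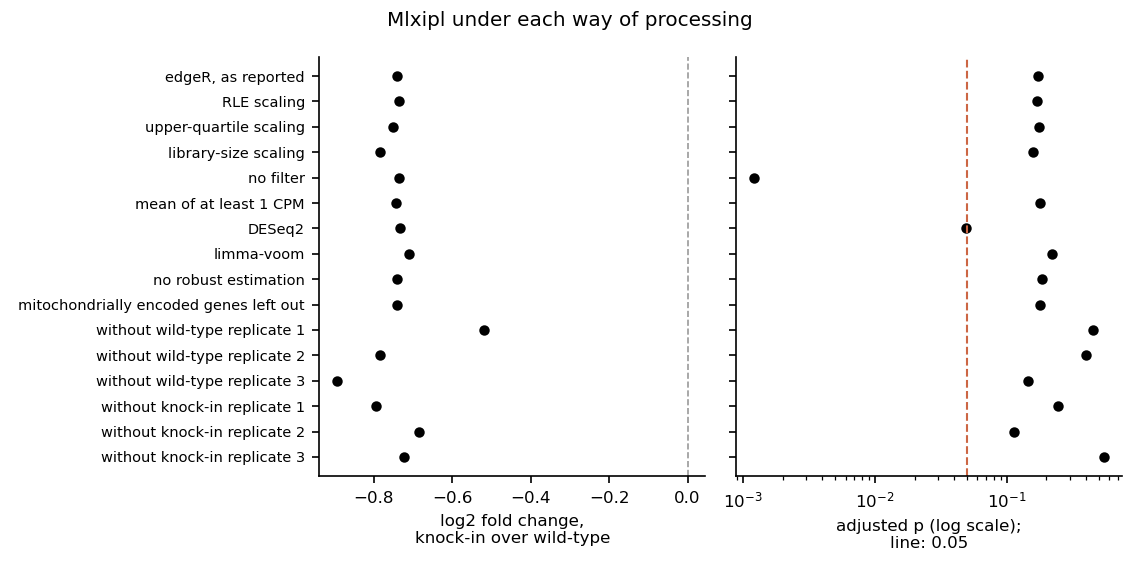
Log2 fold change of Mlxipl (left, knock-in over wild-type) and its adjusted p (right, log axis, dashed line at 0.05) under each way of processing. The log2 fold change stayed between -0.89 and -0.52, and the adjusted p was under 0.05 with DESeq2 (0.0495) and without a filter (0.00121).

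Mlxip, the gene of MondoA (ENSMUSG00000038342, chromosome 5, 123394798 to 123457932), had slightly higher values in the knock-in hearts. It stood at 26.7, 27.0 and 24.9 CPM in the wild-type and at 30.6, 29.8 and 29.0 CPM in the knock-in hearts. The groups did not overlap and the hearts within each genotype lay close together, with coefficients of variation of 4.33% and 2.59%. The log2 fold change was 0.19 ± 0.11 (SE; 95% interval -0.05 to 0.42, edgeR adjusted p = 0.629), so the interval excludes a rise of more than 1.34-fold.

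Mlx, the obligate partner of both (ENSMUSG00000017801, chromosome 11, 101087277 to 101092207), stood at 21.9, 20.2 and 18.1 CPM in the wild-type and at 17.4, 21.2 and 16.7 CPM in the knock-in hearts. The groups overlapped, with knock-in replicate 2 between the 2 highest wild-type hearts, and the log2 fold change was -0.12 ± 0.14 (SE; 95% interval -0.43 to 0.18, edgeR adjusted p = 0.845). Of the exon bases of Mlx 19.3% lie in exons of Psmc3ip on the other strand, and the sources used here do not give the strand setting of the counting. Psmc3ip had 15 to 41 counts per heart, and Mlx had 245 to 322.

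The balance between the sensors was compared within each heart, as a ratio of CPM per kilobase of exon, which does not depend on how the libraries are scaled. Mlxipl over Mlxip was 1.18, 0.852 and 0.764 in the wild-type hearts and 0.521, 0.461 and 0.494 in the knock-in hearts. All 3 knock-in ratios were below the wild-type ones, and the log2 difference of the means was -0.90 (exact two-sided permutation test, p = 0.1, the smallest p that 3 against 3 allows). Mlxipl alone was lower and Mlxip alone higher in every knock-in heart, so the separation of the ratios and this p were fixed in advance. The ratio therefore adds no evidence beyond the values of the 2 genes. Without wild-type replicate 1 the log2 difference was -0.71. The ratio depends on which exons are counted as length: with the longest transcript in place of all exons the means were 1.25 and 0.660 in place of 0.932 and 0.492, with the same log2 difference. The sum of both sensors over Mlx was 0.640, 0.594 and 0.582 in the wild-type hearts, beside 0.643, 0.494 and 0.624 with the knock-in. These ratios overlapped (log2 difference -0.05, exact two-sided permutation test, p = 0.9).

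**Figure D3:**
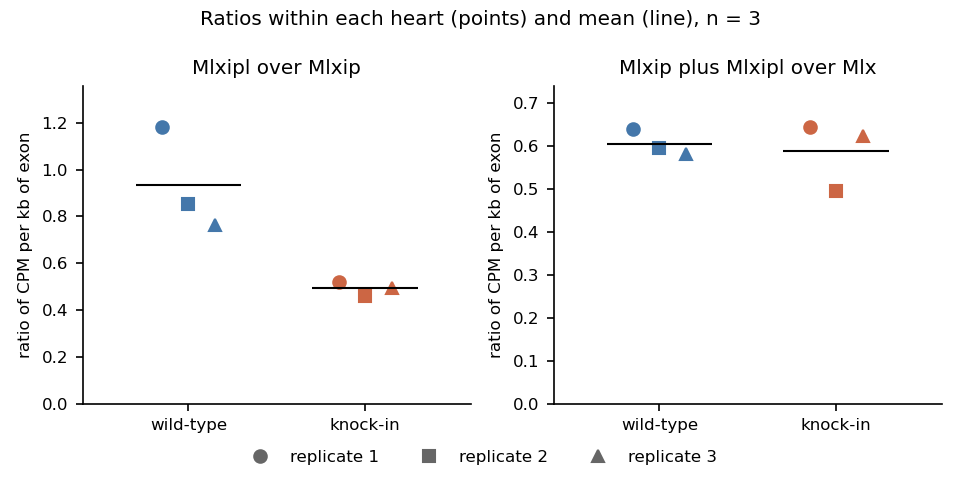
Ratios within each heart, of CPM per kilobase of exon (y axes, from 0), for Mlxipl over Mlxip (left) and for Mlxip plus Mlxipl over Mlx (right), with the mean of 3 hearts as a line. The left ratios were 0.764 to 1.18 in wild-type and 0.461 to 0.521 in knock-in hearts, while the right ratios overlapped.

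Per kilobase of exon the members fell into 4 ranges of level in the wild-type hearts, with every exon base counted as length. G6pc3 was highest at 16.1 ± 1.59 CPM per kilobase (SD, n = 3). Bhlhe40 (7.85 to 11.9), Mlx (9.07 to 10.9) and Pik3ip1 (9.06 to 10.6) followed and overlapped. Mlxip (3.15 ± 0.136) and Mlxipl (2.95 ± 0.769) came next and overlapped, and Tkfc (1.58 ± 0.181) and Klf10 (1.38 ± 0.203) were lowest and overlapped as well. In the knock-in hearts Mlxip stood at 3.58 ± 0.0927 and Mlxipl at 1.76 ± 0.135 CPM per kilobase, with no overlap between these genes. These ranges depend on the length used. Per kilobase of the longest transcript, wild-type Mlxip was at 3.59 ± 0.156 and Mlxipl at 4.51 ± 1.18 CPM. By that length Mlx, at 10.2 ± 0.956, was below Pik3ip1, at 16.2 ± 1.31, and Tkfc was at 2.65 ± 0.303 and Klf10 at 1.9 ± 0.279. Txnip was above all members, at 232 to 253 CPM per kilobase of exon in wild-type and 125 to 140 in knock-in hearts.

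Among the targets, Pik3ip1 had the largest positive difference. It encodes a membrane protein that binds and restrains the catalytic subunit of phosphoinositide 3-kinase (ENSMUSG00000034614, chromosome 11, 3330401 to 3342971). Its level was 41.2, 45.4 and 38.7 CPM in the wild-type and 48.1, 47.8 and 53.6 CPM in the knock-in hearts. Every knock-in heart was above every wild-type heart, by a small margin between 45.4 and 47.8 CPM. The log2 fold change was 0.26 ± 0.11 (SE; 95% interval 0.02 to 0.49), and the adjusted p was 0.465 (edgeR, unadjusted p = 0.0381).

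G6pc3, the widely expressed glucose 6-phosphatase of the endoplasmic reticulum, acts on the sugar phosphate that activates the sensors (ENSMUSG00000034793, chromosome 11, 102189620 to 102194081). It stood at 33.2, 39.8 and 34.4 CPM in the wild-type and at 42.4, 40.8 and 36.8 CPM in the knock-in hearts. The groups overlapped through wild-type replicate 2. Its log2 fold change was 0.16 ± 0.12 (SE; 95% interval -0.09 to 0.41, edgeR adjusted p = 0.723). Of all members, only Klf10 and G6pc3 share no exon bases with another annotated gene.

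Tkfc, which encodes the triokinase that phosphorylates glyceraldehyde from fructose, had 73 to 118 counts per heart (ENSMUSG00000034371, chromosome 19, 10587791 to 10605654). It stood at 7.23, 8.17 and 6.51 CPM in the wild-type and at 6.05, 7.31 and 4.98 CPM in the knock-in hearts. The groups overlapped, and the log2 fold change was -0.25 ± 0.19 (SE; 95% interval -0.67 to 0.16, edgeR adjusted p = 0.731). Its exons share 20.01% of their bases with Cyb561a3 and Ddb1 on the other strand. Cyb561a3, at 76 to 125 counts, had a log2 fold change of -0.32 ± 0.19, and Ddb1, at 2761 to 3536 counts, one of 0.12 ± 0.10. How many reads moved between these genes was not tested.

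Klf10 encodes a zinc-finger repressor first known as a gene induced by transforming growth factor beta (ENSMUSG00000037465, chromosome 15, 38291463 to 38300706). Its values were 6.61, 5.82 and 4.91 CPM in the wild-type and 6.96, 4.61 and 5.66 CPM in the knock-in hearts. Knock-in hearts were both the highest and the lowest of the 6. From 70 to 107 counts per heart came a log2 fold change of -0.01 ± 0.21 (SE), with an edgeR adjusted p of 0.996, and the 95% interval ran from 0.725-fold to 1.36-fold.

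Bhlhe40, a repressor that binds E-boxes and damps the circadian clock, differed more among wild-type hearts than between genotypes (ENSMUSG00000030103, chromosome 6, 108660629 to 108666925). Its values were 36.9, 52.6 and 55.9 CPM in the wild-type and 49.7, 46.7 and 51.2 CPM in the knock-in hearts. Wild-type replicate 1 was the lowest of the 6. Between genotypes its log2 fold change was 0.02 ± 0.15 (SE; 95% interval -0.30 to 0.35, edgeR adjusted p = 0.988), and it was -0.14 without wild-type replicate 1. Its sign also turned under library-size scaling (-0.02).

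**Figure D4:**
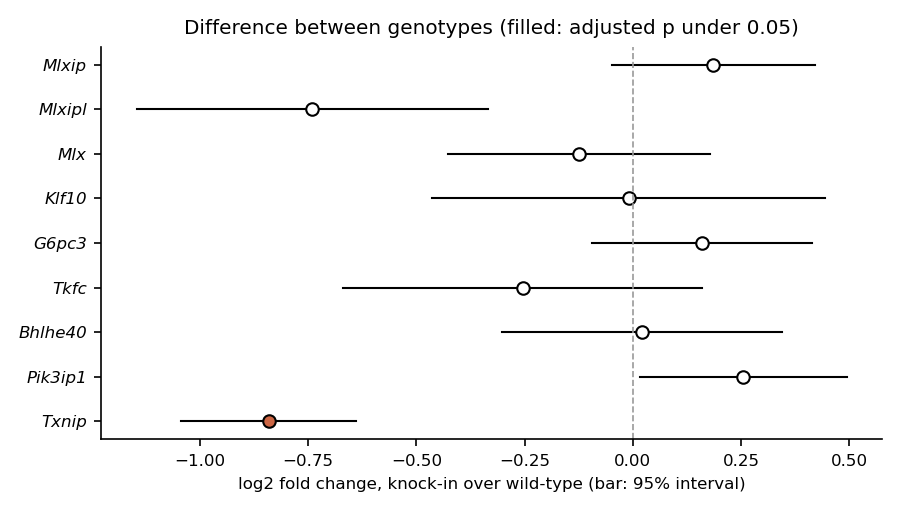
Log2 fold changes (x axis, knock-in over wild-type) of the 8 genes and of Txnip, with 95% intervals from the edgeR fit. Txnip (-0.84) is the filled point with an adjusted p under 0.05, and the intervals of Mlxipl (-1.15 to -0.33) and Pik3ip1 (0.02 to 0.49) exclude 0 before adjustment.

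Bhlhe40 and Klf10 are known to respond to time of day and to acute stimuli, and clock and immediate early genes were read beside them. No clock gene of 19 was called by edgeR, DESeq2 or limma-voom. Of the 19 log2 fold changes 14 were positive, with a median of 0.09 beside -0.0068 for all tested genes. Before adjustment 2 were higher at p under 0.05, against 4.74% of tested genes. Hlf, a clock output factor, was among them (log2 fold change 0.64 ± 0.20, edgeR adjusted p = 0.268). Wild-type replicate 3 stood apart in Per1 and Arntl, which were chosen after their values were seen. Per1, a clock repressor, was at 9.69 CPM there and at 36.2 to 48.0 CPM in the other 5 hearts, and Arntl, the clock activator, was at 10.3 CPM against 3.43 to 7.35 CPM. Of 16 immediate early genes 0 were called by the same 3 tools, and 1, Atf3, was higher at an unadjusted p under 0.05 (0.83 ± 0.35, edgeR adjusted p = 0.474). Wild-type replicate 3 also had the lowest summed level of the immediate early list, at 240 CPM against 322 to 543 CPM in the other 5 hearts. Mitochondrially encoded genes took 28% of its counts and 22.9% to 24.3% of theirs. The immediate early gene Fosb, also chosen after its values were seen, was at 15.7 CPM in knock-in replicate 2 and at 0.341 to 4.98 CPM in the other hearts. The part of these genes in the values of Klf10 and Bhlhe40 was not tested.

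Other targets of MondoA and ChREBP were read in the same fit. Of 24 carbohydrate-response genes 19 were tested and 0 were called by edgeR, DESeq2 or limma-voom. With 0.297% of all tested genes called by edgeR, 0 of 19 is no result about these genes. Without a filter edgeR called 2, against 1.46% of the genes it tested. Before adjustment 3 were higher and 2 lower at p under 0.05, against 4.74% and 5.23% of tested genes. Of the 19 log2 fold changes 11 were positive, with a median of 0.02. The member with the smallest p was Gpd1, the glycerol 3-phosphate dehydrogenase that links glycolysis to lipid synthesis, at 52.8 ± 3.64 and 68.1 ± 6.71 CPM (SD, n = 3; log2 fold change 0.37 ± 0.11 SE, edgeR adjusted p = 0.258). The lipogenic enzymes had log2 fold changes of -0.24 ± 0.16 for Fasn, 0.01 ± 0.17 for Acaca, -0.04 ± 0.10 for Acly and -0.03 ± 0.18 for Scd1, named after their values were seen. Pklr, the liver pyruvate kinase and a classical ChREBP target, had 0 counts in all 6 hearts, where 3 counts equal 0.192 to 0.212 CPM. Elovl6, Fgf21, Pnpla3 and Angptl8 had too few counts for the test.

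Of the 4 arrestin targets, Txnip alone was called, by edgeR, DESeq2 and limma-voom. The others are named after their values were seen. Arrdc4, the other well-known arrestin target of MondoA, had a log2 fold change of 0.20 ± 0.19 (SE; edgeR adjusted p = 0.800). Arrdc3 had 0.27 ± 0.14 (0.592) and Arrdc2 had 0.33 ± 0.79 (0.951), with Arrdc2 running from 3.67 to 31.2 CPM among wild-type hearts. Whether they differed from Txnip in their change was not tested.

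Among the regulators of MondoA and ChREBP, 0 of 24 were called by edgeR, against 0.297% of tested genes. With unadjusted p under 0.05, 2 were higher and 2 lower, against 4.74% and 5.23% of tested genes. Their median log2 fold change was 0.01. Nr1h3, the liver X receptor alpha and a known activator of Mlxipl transcription, had the smallest p. It stood at 23, 20.1 and 18.2 CPM in the wild-type and at 12.8, 13.6 and 11.1 CPM in the knock-in hearts, with no overlap. The log2 fold change of Nr1h3 was -0.71 ± 0.14 (SE), with an edgeR adjusted p of 0.0842. DESeq2 called it as the only gene of the list, while limma-voom called 0. Its relative Nr1h2, named after its values were seen, had -0.33 ± 0.12. The 14-3-3 genes, the subunits of protein phosphatase 2A and of AMP-activated kinase, and Ogt and Oga, which add and remove the sugar mark of ChREBP, were not called.

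Macrophages also express Nr1h3, and their markers were read beside it. The summed level of 11 macrophage and monocyte markers was 345 to 399 CPM in the wild-type and 264 to 285 CPM in the knock-in hearts. Of the 11, 10 had negative log2 fold changes, with a median of -0.44 beside -0.0068 for all tested genes. Before adjustment 6 of 11 were lower at an edgeR p under 0.05, against 5.23% of tested genes, and 1, Lyz2, was called (-0.60 ± 0.10, edgeR adjusted p = 0.0399). DESeq2 called 3 of 11, against 1.17% of the genes it tested, and limma-voom 0. Their part in the values of Mlxipl and Nr1h3 was not tested. Of the markers of fat cells, which are rich in ChREBP, Plin1 and Lep were at 0 in all hearts, and Adipoq, Cidec, Cfd, Retn and Pck1 were too low for the test. The summed level of the 8 adipocyte markers, almost all of it from Lipe, was 29.7 to 32 CPM in the wild-type and 29.1 to 41.6 CPM in the knock-in hearts. Of the 8 brown fat markers, Elovl3 was at 0 and Ucp1 too low for the test. Of the 6 tested, 0 were called by edgeR and 3 were higher at unadjusted p under 0.05, against 4.74% of tested genes. DESeq2 called 1, Cidea, against 1.17% of the genes it tested. The sum of the 8 was 1310 to 1477 CPM in the wild-type and 1607 to 1871 CPM in the knock-in hearts. Most of that sum came from Cox7a1 (766 and 951 CPM on average) and Cox8b (500 and 616 CPM), mitochondrial genes that heart muscle also expresses. Mesothelial markers summed to 3.26 to 6.34 and 1.98 to 2.31 CPM, but 5 of the 6 were too low for the test. Only Wt1 was tested, and its values overlapped between genotypes (log2 fold change -0.44 ± 0.24, edgeR adjusted p = 0.608). Without a filter edgeR called 1 of the 6, against 1.46% of the genes it tested. The part of mesothelial cells was not tested either.

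The hearts showed the markers of the labelled tissue, with 8 cardiomyocyte genes summing to 58916 to 61821 CPM in wild-type and 66229 to 71323 CPM in knock-in hearts, and 1 of 8, Myl2, called higher. Red blood cell genes differed, with 5 of 7 called and all 5 higher, against 0.11% of tested genes. Their sum was 464 to 636 CPM in wild-type and 1450 to 1920 CPM in knock-in hearts. Neutrophil markers reached at most 8.59 CPM in sum in wild-type and 18.8 CPM in knock-in hearts. Of 5 tested, edgeR called 0, and 3 were higher before adjustment, against 4.74% of tested genes. DESeq2 called 1, against 1.17%, and edgeR without a filter called 4 of the 7 listed, against 1.46%. Endothelial cells and fibroblasts had 0 of 8 genes called each by edgeR, DESeq2 or limma-voom and 0 with unadjusted p under 0.05, while smooth muscle had 1 of 8, Acta2, lower. Of lymphocyte and hepatocyte markers 0 had enough counts for the test, and skeletal muscle markers, of which 3 could be tested, had 0 called. How far any of these cell types entered the values of the 8 members was not tested.

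The wider MYC, MAX and MLX network, whose members share dimer partners with Mlx, had 0 of 8 tested genes called by edgeR, DESeq2 or limma-voom. Before adjustment 2 were higher and 1 lower at p under 0.05, against 4.74% and 5.23% of tested genes. The median log2 fold change of the network was 0.04. Max, the common partner of the MYC arm, had the smallest p, at 27.2 ± 1.81 and 35.1 ± 1.64 CPM (SD, n = 3; log2 fold change 0.37 ± 0.11 SE, edgeR adjusted p = 0.255).

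Pathways around the single targets were read in the same way. Over all tested genes edgeR called 0.297%, and before adjustment 4.74% were higher and 5.23% lower at p under 0.05. Of 19 tested enzymes and transporters of hexose phosphates and fructose, 0 were called by the 3 tools, with 1 higher and 2 lower before adjustment and a median log2 fold change of 0.04. The other glucose 6-phosphatase genes, G6pc of the liver and G6pc2 of the pancreatic islets, were at 0 in all hearts, which left G6pc3 as the one member of that family with counts. Of 17 genes of the phosphoinositide 3-kinase pathway, 0 were called by the 3 tools and 0 had an unadjusted p under 0.05, with a median of -0.11 and 11 of 17 negative. Pik3c2b had the smallest p among them (-0.25 ± 0.14, edgeR adjusted p = 0.601). FOXO targets gave 0 of 15 by the 3 tools and 0 at an unadjusted p under 0.05, and Pdk4 had the smallest p (0.60 ± 0.34, edgeR adjusted p = 0.643). The KLF family with the transforming growth factor beta and SMAD genes gave 0 of 23 by the 3 tools, with 2 higher and 1 lower before adjustment. Skil, a repressor of SMAD signalling, had the smallest p there (-0.39 ± 0.14, edgeR adjusted p = 0.382), and Klf11, the nearest relative of Klf10, named after its values were seen, had 0.42 ± 0.18.

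**Figure D5:**
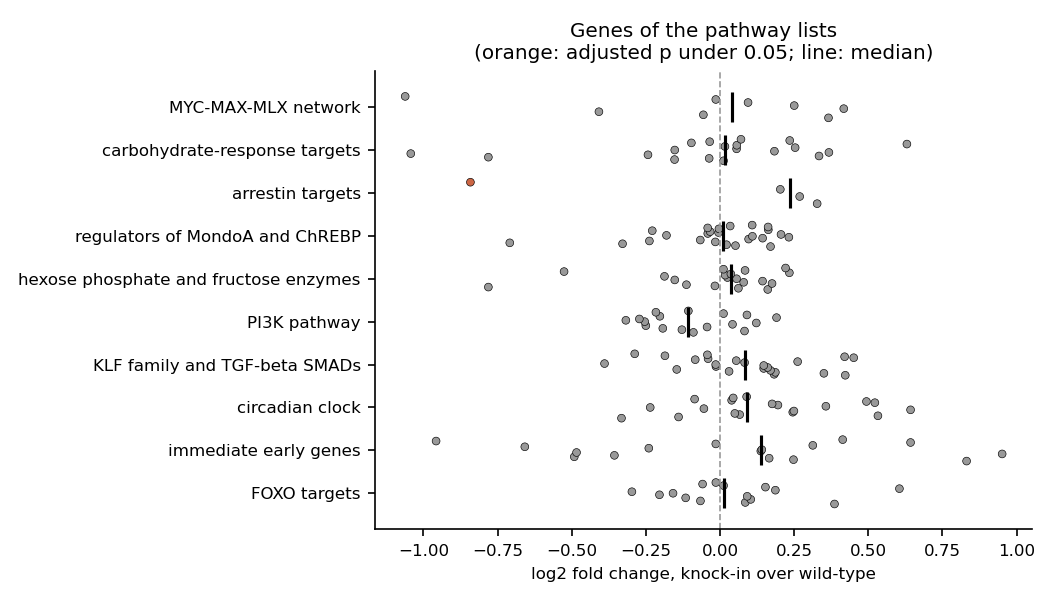
Log2 fold changes (x axis, knock-in over wild-type) of each tested gene of the 10 pathway lists, with the list's median as a line. Txnip, at -0.84, is the one gene with an adjusted p under 0.05, and the medians lie between -0.11 and 0.24.

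Genes with the nearest profile over the 6 hearts were found by the root mean square difference of log2 CPM, each centred on its own mean, among 9091 genes with a mean of at least 5 CPM. For Mlxipl these were Grip2 (0.0882 on the log2 scale), Tlnrd1 (0.115) and Naprt (0.119), where the median of all 9091 genes was 0.449. Like Mlxipl, Grip2 was highest in wild-type replicate 1 and lower in every knock-in heart, at 9.41, 8.03 and 6.51 CPM and at 5.01, 4.88 and 4.77 CPM. This likeness follows from the choice of the nearest among 9091 genes over the same hearts, and so does a distance below the median. For Mlxip they were Esd (0.0162), Fam92a (0.0171) and Cox7b (0.0176), against a median of 0.186. For Mlx they were Fam214b (0.0332), Mknk1 (0.0412) and Gstk1 (0.0436), against a median of 0.215. None of the 9 was called by edgeR.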

How the data were processed

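Bulk RNA sequencing of 6 mouse hearts, 3 of each genotype, was analysed. The authors deposited 1 table of whole-number read counts per Ensembl gene, unnormalised. GRCm38.p6 is the build in the submitters' processing notes, which also list DESeq2, featureCounts, STAR and Subread 1.5.2 without saying what each did. Annotation release, strandedness and the handling of multiply matching reads: not given in the sources used here. Names, positions and exon lengths came from GENCODE M21 (GRCm38), which lacked 259 of the 49315 identifiers (0.0070% of counts). Promoters came from RefSeq (GRCm38.p6).

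The test was run in edgeR 4.0.16 under R 4.3.3, after filterByExpr and TMM scaling, with robust glmQLFit and glmQLFTest on genotype, with no covariate. The SE is the log2 fold change over the square root of F, and CPM are TMM-normalised. Counts were simulated for this comparison from the fitted dispersions (12626 genes). Changes of 0.5, 1 and 2 on the log2 scale were planted in 67, 67 and 66 genes, with the genes of lowest counts left out. The fit called 17.9%, 82.1% and 98.5% of these, and 9 of the 12426 unchanged genes. Alternatives used DESeq2 1.42.0, limma-voom (limma 3.58.1), other scalings and filters, and each heart left out. Counts of same-genotype hearts varied beyond counting error (chi-square over its degrees of freedom, 6.70 to 25.1); nothing says how the animals were related, so p-values measure the spread between these samples. Reads carry no molecular identifiers, so intervals of counts and the floor of 3 counts cover counting error only.

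The members, lists and tests were chosen with earlier results of these data known. Named genes are the 8 members, Txnip, in each pathway list up to 4 called genes or the 1 with the smallest p, and the 3 nearest profiles of each partner; any other gene was named after its values were seen, whether or not the text says so there. Klf10 and Bhlhe40 are named without a promoter. Some genes that the rule names are not reported here.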

Additional observations from a re-analysis of the deposited data

How the results depend on the processing

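Under RLE, upper-quartile and library-size scaling, a mean of at least 1 CPM, limma-voom, non-robust estimation, removal of mitochondrially encoded genes, a threshold of 0.1 on the adjusted p, and with any 1 heart left out, 0 members were called. DESeq2 called 1, Mlxipl, and edgeR without a filter called 1, also Mlxipl. Mlxip, Mlxipl, Mlx, G6pc3, Tkfc, Pik3ip1 and Txnip kept their sign in all 15 alternatives. With 1 heart left out, the log2 fold change of Klf10 ran from -0.162 to 0.1375 and was positive without wild-type replicate 1 (0.0979), knock-in replicate 2 or knock-in replicate 3 (0.0032). That of Bhlhe40 ran from -0.1412 (wild-type replicate 1 out) to 0.1366, and was -0.0064 with knock-in replicate 3 out and -0.016 under library-size scaling. The log2 difference of the Mlxipl to Mlxip ratio ran from -1.03 to -0.71. Over all genes the 38 calls became 75 at an adjusted p under 0.1, 317 without a filter (which also called 1 gene each of the regulator, hexose phosphate and clock lists and 2 of the immediate early list), 139 with DESeq2 and 18 with limma-voom. Leaving out 1 heart gave 5 (wild-type replicate 2) to 174 (knock-in replicate 2), with 14 and 13 for wild-type replicates 1 and 3 and 28 and 6 for knock-in replicates 1 and 3. The cause was not tested. No scaling moved the median of all genes beyond -0.05. No paired analysis was possible because the replicate numbers follow accession order.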
